A study of Homo sapiens with 12 samples.

Results

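The genes of MHC class I antigen presentation were followed across 12 expression arrays of MDA-MB-231 cells, a human breast cancer cell line. The set held 8 genes, chosen by name with earlier results of these data known. They were the heavy chain genes HLA-B, HLA-C, HLA-E and HLA-F, the light chain gene B2M, and TAP1, TAP2 and TAPBP of the peptide-loading machinery. All of their probes on the HumanHT-12 V4 array were taken, which gave 14 probes of 47311 with values. Of these, 13 were among the 22195 probes kept because they were detected above the negative control beads (detection p below 0.05) on at least 3 arrays, and 1 of the HLA-C probes was detected on none.

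Cells had been transfected, with Oligofectamine, with 100 nM siRNA. The tested arrays were labelled as ARF1 siRNA, a SMARTpool against the small GTPase ARF1, and their source names split them into ARF-4, ARF-2 and ARF-1, with 3 arrays each. The control group of 3 arrays was labelled scramble, with the source name nonsilence. The labels do not say how ARF-4, ARF-2 and ARF-1 differ, when the cells were harvested or whether arrays came from separate cultures, so p-values measure only the spread between these arrays, which may be technical. The design compared ARF1 siRNA with scramble to examine the part of ARF1 in epithelial-mesenchymal transition.

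No decrease of the targeted gene was called on the arrays labelled ARF1 siRNA. The ARF1 probe ILMN_1802203 had log2 intensities of 11.73, 11.78 and 11.78 on the ARF-4 arrays, 11.87, 11.87 and 11.83 on the ARF-2 arrays and 11.64, 11.79 and 11.72 on the ARF-1 arrays, against 11.59, 11.71 and 11.63 on the scramble arrays. The difference of the 9 arrays from scramble was 0.14 (limma, adjusted p = 0.321), and the other ARF1 probes differed by 0.16 (adjusted p = 0.399) and -0.18 (adjusted p = 0.453). The last of these, ILMN_1661458, was near background and differed by -0.03 in ARF-4, -0.23 in ARF-2 and -0.28 in ARF-1, none called. No ARF1 probe was called lower in any set, and each direction below is that of the arrays labelled ARF1 siRNA. Mean raw signal per array was 303 to 518, and 39.1% to 42.8% of probes were detected. All 6 of the markers taken for MDA-MB-231 (VIM, CD44, AXL, CAV1, MSN and ANXA1) were detected on all 12 arrays. Of the 6 luminal or epithelial markers, ESR1, PGR and CDH1 were detected on none, ERBB2 on all 12, and GATA3 and FOXA1 on some. The leukocyte markers PTPRC, CD3E and ITGAM were detected on none, while CD14 and CD68 were detected on all 12. Of the 4 kept leukocyte markers, CD14 differed from scramble by 0.00 in ARF-4 (adjusted p = 0.991) and was higher in ARF-2 by 1.01 (0.000164) and in ARF-1 by 0.54 (0.00858), and MS4A1, detected on 4 of 12 arrays, was called lower in ARF-2 and ARF-1. Of the 6 MDA-MB-231 markers, by their brightest probes, 0 were called in ARF-4, 2 were lower in ARF-2 (CAV1 and MSN) and 3 in ARF-1 (CD44 as well), and other probes of CAV1, CD44 and AXL were called lower in every set. The summed raw signal of the 4 kept leukocyte markers was 2175 to 3935 on ARF-4, 2238 to 3410 on ARF-2 and 2995 to 3510 on ARF-1 arrays, against 2646 to 3429 on scramble arrays.

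MHC class I molecules show fragments of the cell's own proteins to CD8 T cells. A heavy chain pairs with beta-2-microglobulin in the endoplasmic reticulum, where the TAP1-TAP2 transporter brings in peptides made by the proteasome and tapasin (TAPBP) bridges the transporter to the empty heavy chain. Transcription of these genes is raised by interferon and by NF-kB, and tumour cells often lower it. The class I heavy chain genes resemble each other in sequence, so an HLA probe can take up transcripts of related loci. The sequences of the probes were not used here, and how far each HLA probe cross-hybridised was not tested.

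Promoter sequences are shown for the 4 genes with a probe called by the F-test over the 3 ARF1 siRNA sets, as the stretch in which motifs for interferon and NF-kB signalling were searched. RefSeq windows (GRCh38.p14) were found for 7 of the 8 members, in 8 windows because TAP1 had more than 1 start; HLA-E was not among them. The HLA-B window lies at chr6:31357180-31357429 (minus strand), HLA-C at chr6:31272093-31272342 (minus strand), HLA-F at chr6:29723184-29723433 (plus strand) and TAP2 at chr6:32838740-32838989 (minus strand). Each is printed 5′ to 3′ and is the 250 bases before the annotated start. Capitals mark matches, on either strand, to a kB site of enhancer A (GGGGATTCC), an interferon-stimulated response element core (TTTCNNTT), a CCAAT box (ATTGG), a gamma-activated site (TTCNNNGAA) or a cyclic AMP response element-like X2 box (TGACGC).
HLA-B: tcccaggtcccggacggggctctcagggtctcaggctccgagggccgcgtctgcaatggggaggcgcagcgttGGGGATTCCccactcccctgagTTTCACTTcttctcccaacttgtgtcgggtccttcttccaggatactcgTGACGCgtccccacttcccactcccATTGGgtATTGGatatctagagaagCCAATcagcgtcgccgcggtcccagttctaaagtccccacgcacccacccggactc
HLA-C: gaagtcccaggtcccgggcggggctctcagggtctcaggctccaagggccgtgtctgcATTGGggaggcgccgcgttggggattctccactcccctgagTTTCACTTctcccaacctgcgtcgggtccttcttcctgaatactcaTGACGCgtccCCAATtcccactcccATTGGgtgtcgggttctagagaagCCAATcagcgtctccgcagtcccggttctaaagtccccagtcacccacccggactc
HLA-F: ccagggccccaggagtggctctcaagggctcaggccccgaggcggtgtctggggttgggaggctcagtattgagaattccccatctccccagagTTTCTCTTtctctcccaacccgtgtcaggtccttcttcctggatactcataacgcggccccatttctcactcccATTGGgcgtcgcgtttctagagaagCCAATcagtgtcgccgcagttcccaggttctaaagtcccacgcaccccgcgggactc
TAP2: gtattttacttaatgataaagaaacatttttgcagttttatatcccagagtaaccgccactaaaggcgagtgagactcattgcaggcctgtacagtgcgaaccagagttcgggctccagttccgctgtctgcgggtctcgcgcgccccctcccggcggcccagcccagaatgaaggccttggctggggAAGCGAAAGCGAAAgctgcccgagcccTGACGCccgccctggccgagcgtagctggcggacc

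The heavy chain windows were close relatives, with 91.9% identity between HLA-B and HLA-C (226 of 246 aligned bases) and 83.7% between HLA-B and HLA-F (205 of 245). The kB letters, searched for only as the exact run GGGGATTCC, matched in the HLA-B window alone among the 8, at -177 to -169. They matched in 0.253% of the 35116 promoter windows of the same length, and other forms of a kB site were not searched for. The response element core matched in 7 of the 8 windows, all but the TAP1 window at chr6:32852762-32853011, and in 20.3% of all promoters. In the B2M, TAP2, TAPBP and the other TAP1 window it matched 2 times in overlapping positions. The X2 letters matched in HLA-B, HLA-C and TAP2 and in 7.67% of all promoters, the CCAAT box in HLA-B, HLA-C, HLA-F, B2M and 1 TAP1 window and in 32% of all, and the gamma-activated site in the other TAP1 window and in 6.57% of all. A match is a run of letters and not evidence of binding.

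**Figure D1:**
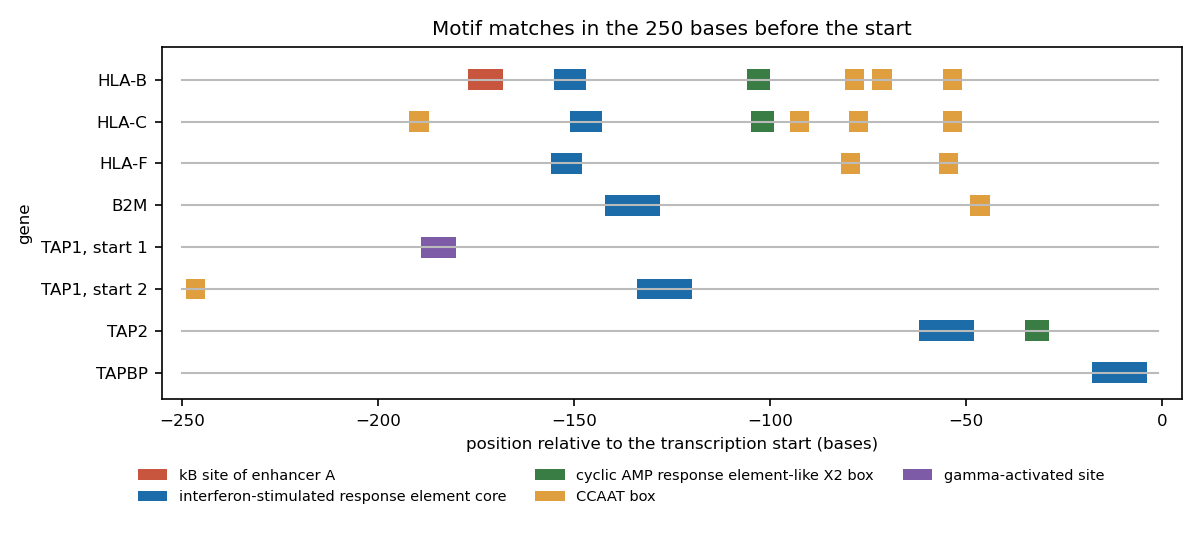
Motif matches in the 250 bases before the start of 7 class I presentation genes (8 windows). The horizontal axis is the distance from the annotated start in bases, each grey line is a window and each coloured block a match. The response element core and a pair of CCAAT boxes line up to within a few bases in HLA-B, HLA-C and HLA-F, whereas the kB block is in HLA-B alone and the X2 block is missing from HLA-F. Those of TAP2 and TAPBP lie within 62 bases of the start.

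The HLA-B probe and 1 of the HLA-F probes were lower in ARF-4 than in scramble, by 26.8% and 27.7%. The TAP2 probe ILMN_1777565 was lower in ARF-2 and ARF-1 than in scramble, 1.90-fold and 2.12-fold, while the other TAP2 probe was called in neither. The bright TAPBP probe ILMN_1742450 was lower in ARF-1 by 30.7%, and a dim TAPBP probe, ILMN_1782851, was higher there. The dim probe was kept only through arrays labelled ARF1 siRNA. HLA-E and TAP1 passed no test. These are whole-culture RNA measurements, in which fewer cells expressing a gene and less RNA per cell cannot be told apart.

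Over all 9 arrays labelled ARF1 siRNA against the 3 scramble arrays, 1 of the 13 kept member probes was called (limma on normalized log2 intensities, Benjamini-Hochberg adjusted p below 0.05), a TAP2 probe that was lower, where 10.9% of all probes were called. For ARF-4 against scramble, 2 were called, both lower, where 8.31% of all probes were called. For ARF-2 against scramble, 1 was called, lower, where 24.6% of all were. For ARF-1 against scramble, 3 were called, of which 1 was higher and 2 lower, where 25.9% of all were. The higher one, TAPBP ILMN_1782851, was kept only through arrays labelled ARF1 siRNA, so its call is no separate support. The 1 of 13 over the 9 arrays, the 1 of 13 in ARF-2 and the 3 of 13 in ARF-1 are shares below those of all probes, and the 2 of 13 in ARF-4 is a larger share, each resting on a few probes. Without the array ARF-1 replicate 2 or ARF-2 replicate 2, or without any ARF-4 or scramble array, the ARF-4 count was 1. The median difference over the 13 probes was -0.09 in ARF-4, 0.08 in ARF-2 and 0.01 in ARF-1 on the log2 scale, and that over all kept probes was 0.00, -0.00 and 0.00.

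The ARF1 siRNA sets were then set against each other. ARF-4 differed from ARF-1 for 8 member probes of 6 genes, 3 higher and 5 lower, where 19.6% of all probes were called. The lower ones included TAPBP ILMN_1782851, detected on 1 of 3 ARF-4 and 3 of 3 ARF-1 arrays, whose call is no separate support. ARF-4 differed from ARF-2 for 5 member probes of 4 genes, 2 higher and 3 lower, where 19.3% were called. The count against ARF-1 was 2 without ARF-1 replicate 2, 3 without ARF-1 replicate 3 or ARF-4 replicate 3, 4 without ARF-4 replicate 2 and 5 without ARF-1 replicate 1. The count against ARF-2 was 3 without ARF-2 replicate 2. ARF-2 and ARF-1 differed for 0 member probes by limma, with 1 at an unadjusted p below 0.05, where 0.0631% were called. The limma F-test over the 3 sets called 6 member probes of 4 genes (HLA-B, HLA-C, HLA-F and TAP2), where 19.8% of all probes were called, and 3 without any single ARF-4 array. Counted without a test, the ARF-4 arrays lay below all 9 other arrays for 3 member probes (HLA-B, HLA-C and HLA-F), a pattern that 3.73% of all kept probes had. They lay above all others for 1, a TAP2 probe, against 3.81% of all kept probes. The ARF-2 and ARF-1 arrays lay below all ARF-4 and scramble arrays for 1 member probe, TAP2, against 7.62% of all, and above them for 0, against 7.53% of all.

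**Figure D2:**
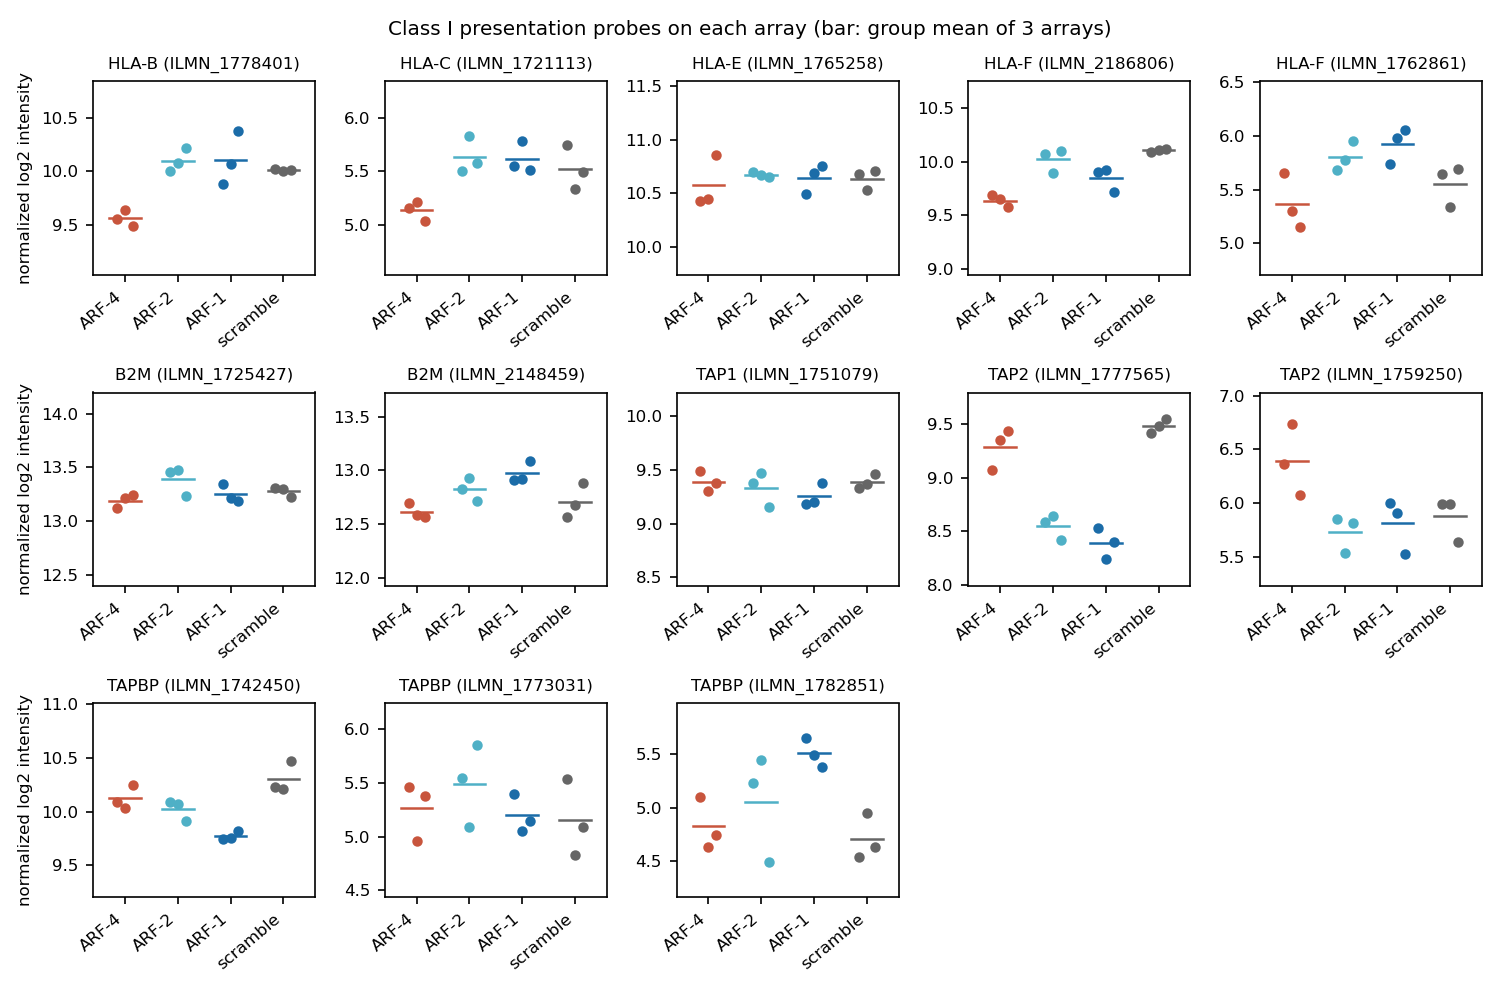
Normalized log2 intensity of the 13 kept member probes on each array. Each panel is a probe with an axis of equal length, points are arrays, bars are means of 3 arrays, and the groups run ARF-4, ARF-2, ARF-1 and scramble. The ARF-4 points lie lowest for HLA-B, HLA-C and HLA-F ILMN_2186806, and the ARF-2 and ARF-1 points lie lowest for TAP2 ILMN_1777565.

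HLA-B encodes a classical heavy chain that presents peptides to CD8 T cells. Its probe ILMN_1778401 had log2 intensities of 9.55, 9.64 and 9.50 on the ARF-4 arrays, 10.00, 10.08 and 10.21 on ARF-2, 9.88, 10.07 and 10.38 on ARF-1, and 10.03, 10.01 and 10.01 on scramble. All ARF-4 arrays were below every other array, whereas the ARF-2, ARF-1 and scramble arrays overlapped. The mean was 9.56 ± 0.07 in ARF-4 and 10.01 ± 0.01 in scramble (SD, n = 3 each), a difference of -0.45 with a standard error of 0.12 (limma, adjusted p = 0.0371; 95% confidence interval -0.71 to -0.19). ARF-4 was also lower than ARF-1 by a difference of -0.55 (limma, adjusted p = 0.00669) and lower than ARF-2 by a difference of -0.54 (limma, adjusted p = 0.00787). For ARF-2 and ARF-1 against scramble the differences were 0.08 and 0.10 (adjusted p = 0.664 and 0.614). The ARF-4 call against scramble was lost on leaving out ARF-2 replicate 2, ARF-1 replicate 2 or any ARF-4 or scramble array (adjusted p up to 0.104) and with median scaling (0.0526), while both differences from the other sets were called in every alternative tried.

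HLA-C encodes a second classical heavy chain, which is also a ligand of killer-cell receptors. The probe ILMN_1721113 had 5.16, 5.21 and 5.04 on ARF-4, 5.50, 5.83 and 5.57 on ARF-2, 5.55, 5.78 and 5.51 on ARF-1, and 5.74, 5.34 and 5.49 on scramble. Again the ARF-4 arrays were the lowest of the 12. The difference of ARF-4 from scramble, -0.39 with a standard error of 0.13, was not called (limma, adjusted p = 0.0843), while those from ARF-1, -0.48 (adjusted p = 0.0204), and from ARF-2, -0.50 (adjusted p = 0.0167), were. Without background correction these became -0.14 and -0.15 (adjusted p = 0.0979 and 0.0783). Neither was called with the authors' value table (0.0904 and 0.0717), and that against ARF-1 was lost with a trended and robust prior (0.0611). This probe was dim, with a detection p of 0.02208 to 0.02597 on the ARF-4 arrays. Leaving out ARF-4 replicate 3 ended both calls, and leaving out ARF-1 replicate 2 or ARF-2 replicate 2 ended the call against that set. The other HLA-C probe, ILMN_2150787, was not well above background on any array, at 4.25 to 4.56, and was not tested.

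HLA-E encodes a non-classical heavy chain that presents leader peptides of other class I chains to NKG2 receptors. Its probe ILMN_1765258 had 10.42, 10.45 and 10.86 on ARF-4, 10.69, 10.67 and 10.65 on ARF-2, 10.50, 10.69 and 10.75 on ARF-1, and 10.68, 10.53 and 10.71 on scramble. The 4 groups overlapped, and the ARF-4 arrays held both the lowest and the highest value. No comparison was called. The difference of ARF-4 from scramble was -0.06, with a 95% confidence interval of -0.33 to 0.21. The difference fitted for HLA-B, -0.45, lay outside this interval, but the HLA-B interval, -0.71 to -0.19, overlapped it. HLA-E and HLA-B were not tested against each other.

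HLA-F encodes a non-classical heavy chain that can reach the cell surface without peptide. Its probe ILMN_2186806 had 9.69, 9.65 and 9.58 on ARF-4, 10.07, 9.90 and 10.11 on ARF-2, 9.91, 9.92 and 9.72 on ARF-1, and 10.10, 10.11 and 10.12 on scramble. The ARF-4 arrays were lowest, and the ARF-1 arrays also lay below all scramble arrays. The mean was 9.64 ± 0.06 in ARF-4 and 10.11 ± 0.01 in scramble (SD, n = 3 each), a difference of -0.47 with a standard error of 0.09 (limma, adjusted p = 0.00877), and this was called in every alternative tried. The difference of ARF-4 from ARF-2 was -0.38 (adjusted p = 0.0116), that from ARF-1 was -0.21 (adjusted p = 0.136), and that of ARF-1 from scramble was -0.26 (adjusted p = 0.0598). The last of these was called in 5 of 8 other processing settings.

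The other HLA-F probe, ILMN_1762861, which is annotated to a different RefSeq transcript, gave a partly different order. It had 5.66, 5.30 and 5.16 on ARF-4, 5.68, 5.78 and 5.96 on ARF-2, 5.74, 5.98 and 6.06 on ARF-1, and 5.64, 5.34 and 5.69 on scramble, so ARF-4 and scramble overlapped. ARF-4 was lower than ARF-1 by a difference of -0.56 (limma, adjusted p = 0.0192), and its difference from scramble was -0.19 (adjusted p = 0.502). The call against ARF-1 was lost without ARF-4 replicate 2 or 3 or ARF-1 replicate 2 or 3 (adjusted p up to 0.0773), and the difference was -0.18 without background correction, still called. The probes of HLA-F correlated with r = 0.309 over the 12 arrays, and with 0.105 as deviations from group means, a description with no test.

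Among the related loci, the non-classical HLA-G and the pseudogene HLA-H were looked at after their values had been seen, because they could share transcripts with the member probes. HLA-G ILMN_1656670 had 7.35, 7.29 and 7.51 on ARF-4, 7.89, 7.88 and 7.89 on ARF-2, 7.79, 7.93 and 7.90 on ARF-1, and 7.76, 7.86 and 7.92 on scramble. The ARF-4 arrays were again the lowest, with a difference from scramble of -0.47 (limma, adjusted p = 0.00813), from ARF-1 of -0.49 (0.00253) and from ARF-2 of -0.51 (0.00214). HLA-H ILMN_2130441 differed between ARF-4 and ARF-2 by -0.51 (adjusted p = 0.0103), and by -0.41 between ARF-4 and scramble (adjusted p = 0.0553). Over the 12 arrays, HLA-B correlated with HLA-G at r = 0.853, with HLA-H at 0.802, with HLA-C at 0.741 and with HLA-F ILMN_2186806 at 0.578. As deviations from group means, these were 0.067, 0.352, -0.014 and -0.395, so the values over 12 arrays largely reflect differences between groups. The points share the array normalization and the 4 groups, and the probes may share transcripts, so these are descriptions.

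B2M encodes the light chain shared by all class I molecules. Its probe ILMN_1725427 had 13.12, 13.22 and 13.24 on ARF-4, 13.45, 13.48 and 13.24 on ARF-2, 13.35, 13.22 and 13.19 on ARF-1, and 13.30, 13.30 and 13.23 on scramble. The groups overlapped throughout, and no comparison was called. The difference of ARF-4 from scramble was -0.09, with a 95% confidence interval of -0.29 to 0.12. The other probe, ILMN_2148459, had 12.70, 12.58 and 12.56 on ARF-4, 12.83, 12.93 and 12.71 on ARF-2, 12.91, 12.92 and 13.09 on ARF-1, and 12.57, 12.68 and 12.88 on scramble. Here ARF-4 lay below ARF-1 without overlap, with a difference of -0.36 (limma, adjusted p = 0.0338), and neither set was called against scramble. The ARF-1 arrays lay above all scramble arrays, by 0.26 (limma, adjusted p = 0.0918; 95% confidence interval 0.03 to 0.49). That difference was called in 4 of 8 other processing settings. The call of ARF-4 against ARF-1 was lost on leaving out ARF-4 replicate 2 or 3 or any ARF-1 array (adjusted p up to 0.116). The probes of B2M correlated with only r = 0.185, and with -0.0798 as deviations from group means.

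TAP2 encodes the partner of TAP1 in the peptide transporter and had the largest differences among the member probes. The probe ILMN_1777565 had 9.07, 9.35 and 9.43 on ARF-4, 8.59, 8.64 and 8.42 on ARF-2, 8.53, 8.24 and 8.40 on ARF-1, and 9.41, 9.48 and 9.54 on scramble. All 6 arrays of ARF-2 and ARF-1 lay below all 6 of ARF-4 and scramble, and the ARF-4 and scramble arrays overlapped. The mean was 8.39 ± 0.14 in ARF-1 and 9.48 ± 0.06 in scramble (SD, n = 3 each), a difference of -1.09 with a standard error of 0.12 (limma, adjusted p = 4.715e-05). The ARF-2 mean was 8.55 ± 0.12 (SD, n = 3), a difference from scramble of -0.93 (limma, adjusted p = 0.0001495). ARF-4 differed from scramble by -0.19 (adjusted p = 0.353) and was higher than ARF-1 by 0.89 (adjusted p = 0.000267) and than ARF-2 by 0.74 (adjusted p = 0.000989). These ARF-2 and ARF-1 calls were made in every alternative tried.

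Over all 9 arrays the same TAP2 probe was called at a difference of -0.74 with a standard error of 0.22 (limma, adjusted p = 0.0476). This value averages sets that differed from each other, and leaving out any ARF-2, ARF-1 or scramble array ended the call, with an adjusted p of up to 0.160. The other TAP2 probe, ILMN_1759250, is annotated to another RefSeq transcript and had 6.37, 6.73 and 6.08 on ARF-4, 5.85, 5.53 and 5.81 on ARF-2, 6.00, 5.91 and 5.52 on ARF-1, and 5.99, 5.99 and 5.64 on scramble. Its ARF-2 and ARF-1 arrays overlapped scramble, with differences of -0.14 and -0.06. Its ARF-4 arrays were the highest of the 12, higher than ARF-1 by 0.58 (limma, adjusted p = 0.0382) and than ARF-2 by 0.66 (adjusted p = 0.0216), with a difference from scramble of 0.52 (adjusted p = 0.0968). Leaving out ARF-4 replicate 1 or 2 ended both calls between sets, as did ARF-2 replicate 2 for that against ARF-2 and ARF-1 replicate 2 or 3 for that against ARF-1 (adjusted p up to 0.145). Without background correction these differences were 0.24 and 0.27. The probes of TAP2 correlated with r = 0.407 over the 12 arrays, and with -0.218 as deviations from group means.

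TAP1 encodes the other chain of the transporter. Its probe ILMN_1751079 had 9.49, 9.30 and 9.37 on ARF-4, 9.38, 9.47 and 9.15 on ARF-2, 9.18, 9.20 and 9.38 on ARF-1, and 9.33, 9.37 and 9.46 on scramble. The groups overlapped and no comparison was called. The difference of ARF-1 from scramble was -0.13, with a 95% confidence interval of -0.36 to 0.10. That of ARF-2 was -0.05, with an interval of -0.28 to 0.18. The differences fitted for TAP2 ILMN_1777565 in the same sets lay outside these intervals, and those for TAP2 ILMN_1759250 lay inside them. TAP1 and TAP2 were not tested against each other.

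TAPBP encodes tapasin, which holds the empty heavy chain beside the transporter. Its probe ILMN_1742450 had 10.09, 10.03 and 10.25 on ARF-4, 10.09, 10.07 and 9.91 on ARF-2, 9.74, 9.76 and 9.82 on ARF-1, and 10.22, 10.21 and 10.47 on scramble. The ARF-1 arrays were the lowest, and those of ARF-2 also lay below all scramble arrays. The mean was 9.77 ± 0.04 in ARF-1 and 10.30 ± 0.15 in scramble (SD, n = 3 each), a difference of -0.53 with a standard error of 0.10 (limma, adjusted p = 0.00235). The differences of ARF-4 and ARF-2 from scramble were -0.18 (adjusted p = 0.326) and -0.28 (adjusted p = 0.0669), and ARF-4 was higher than ARF-1 by 0.35 (adjusted p = 0.0292). The difference of ARF-2 from scramble was called in 5 of 8 other processing settings. The call between sets was lost without ARF-4 replicate 1 or 3 or any ARF-1 array (adjusted p up to 0.101). The F-test over the 3 sets was not called (adjusted p = 0.0606). This TAPBP probe and TAP2 ILMN_1777565 correlated with r = 0.854 over the 12 arrays, and with 0.492 as deviations from group means.

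The other TAPBP probes, annotated to other transcripts, were dim. ILMN_1773031 ranged from 4.83 to 5.85 over the 12 arrays and was called in no comparison. ILMN_1782851 was detected on 1 of 3 ARF-4, 2 of 3 ARF-2, 3 of 3 ARF-1 and 0 of 3 scramble arrays, and its difference between ARF-1 and scramble had the opposite sign to that of the bright probe. It had 5.10, 4.63 and 4.75 on ARF-4, 5.23, 5.45 and 4.49 on ARF-2, 5.65, 5.49 and 5.37 on ARF-1, and 4.54, 4.95 and 4.64 on scramble, where it was not well above background. The probe passed the detection filter only through arrays labelled ARF1 siRNA, so its calls below, counted above, are no separate support. Set against the lowest signal well above background on each scramble array, the ARF-1 mean was 1.50-fold higher, which leaves out the spread between arrays. The fitted difference of ARF-1 from scramble, of uncertain size there, was called (limma, adjusted p = 0.0164; 95% confidence interval 0.33 to 1.26). Leaving out ARF-1 replicate 1, scramble replicate 1 or scramble replicate 3 ended this call, with an adjusted p of up to 0.0613. ARF-4, where it was detected on 1 array and the size of the difference is uncertain, was also called lower than ARF-1 (adjusted p = 0.0433), a call lost without ARF-4 replicate 2 or 3, scramble replicate 1 or 3 or any ARF-1 array (up to 0.137). ARF-2 was called against scramble only without ARF-2 replicate 3 (adjusted p = 0.0214), which made 2 member probes called there.

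**Figure D3:**
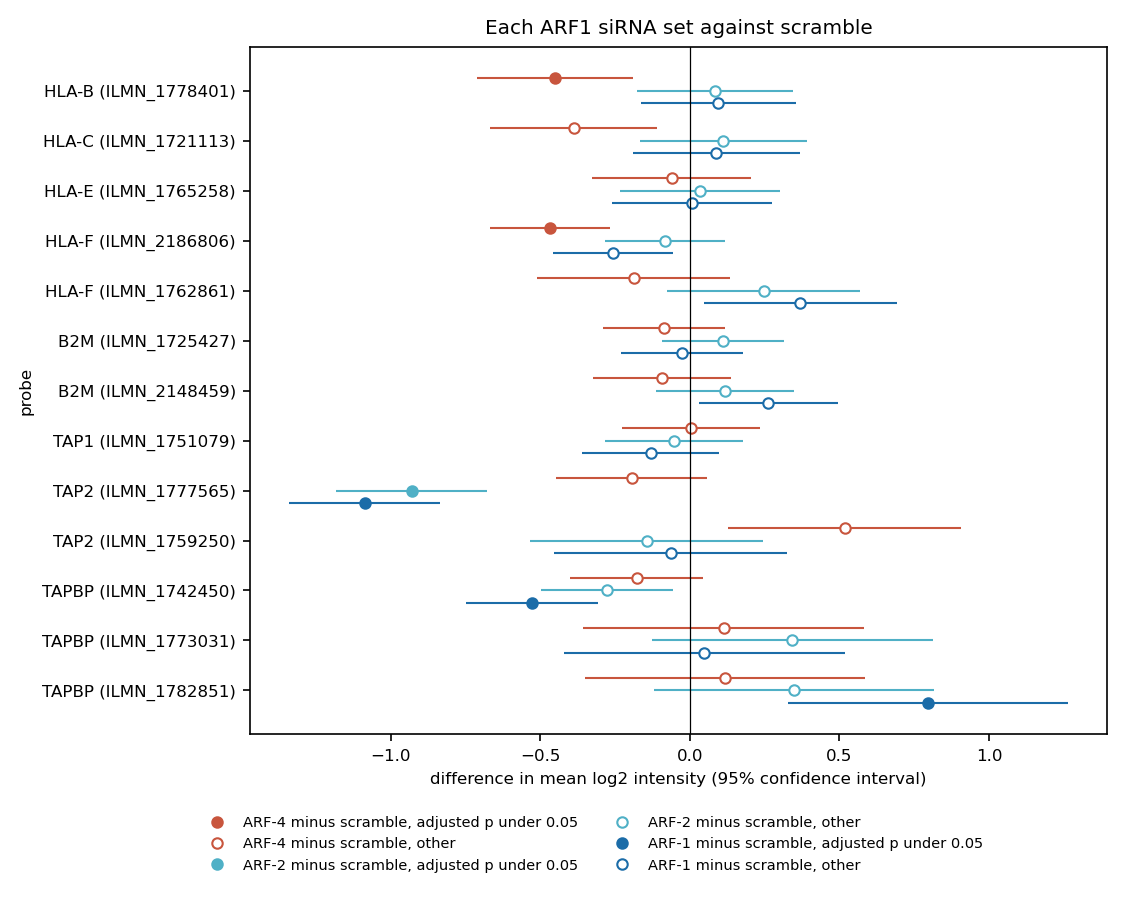
Difference in mean log2 intensity of each ARF1 siRNA set from scramble for the 13 kept member probes, ARF-4, ARF-2 and ARF-1 from top to bottom in each row. Points are limma estimates with 95% confidence intervals, filled where the adjusted p was below 0.05. HLA-B and HLA-F ILMN_2186806 are filled in ARF-4, and TAP2 ILMN_1777565 in ARF-2 and ARF-1.

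**Figure D4:**
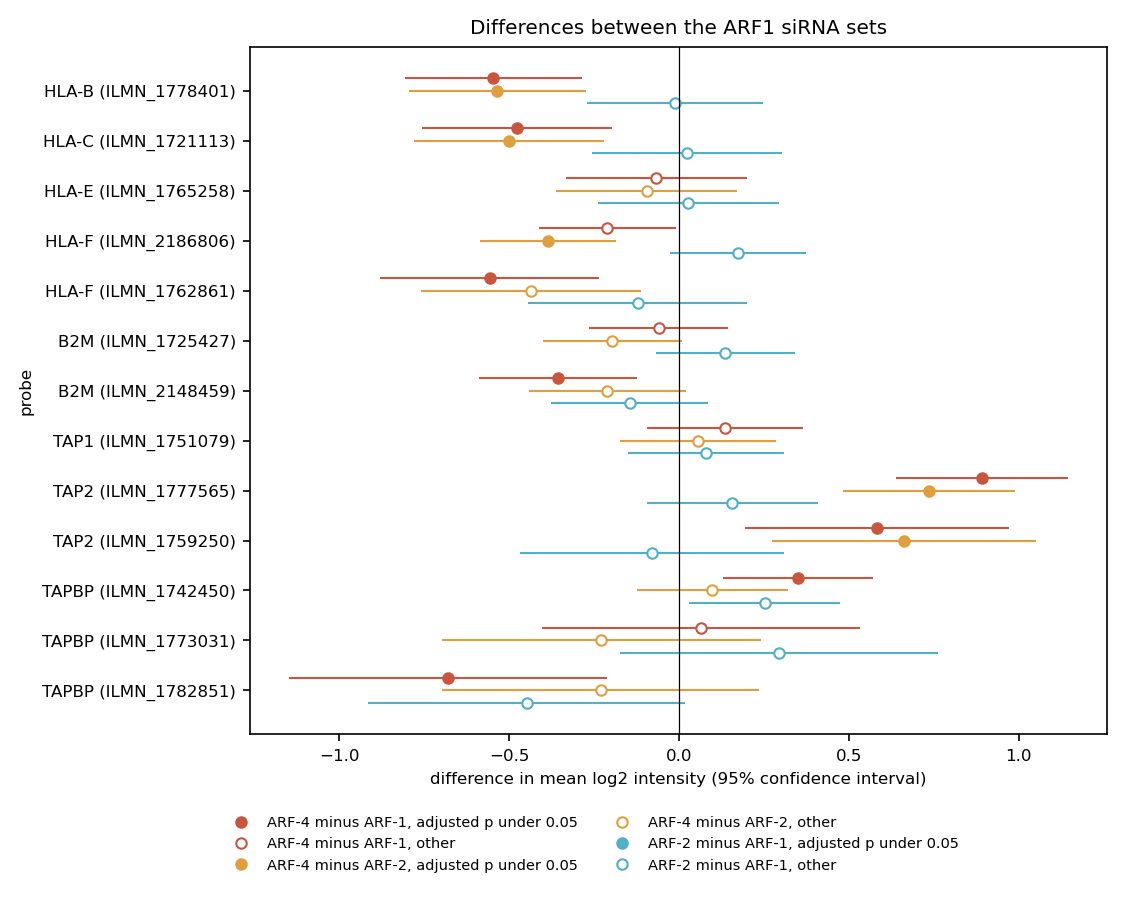
Differences between the ARF1 siRNA sets for the same 13 probes, with 95% confidence intervals and filled points where the adjusted p was below 0.05. ARF-4 lies below ARF-1 and ARF-2 for HLA-B and HLA-C and above both for the 2 TAP2 probes, and no point of ARF-2 minus ARF-1 is filled.

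Genes whose intensities followed each member most closely were taken by Pearson's r over the 12 arrays, from 3791 genes whose group means spanned at least 0.5 on the log2 scale. For HLA-B they were METTL25B (r = 0.932), the integrin subunit ITGB4 (0.919) and the MYC antagonist MXD1 (0.913). For HLA-C they were MALL (0.910), EMP1 (0.899) and CSTPP1 (0.896). For HLA-F they were the TGF-beta-induced matrix protein TGFBI (0.932), APCDD1L (0.931) and the collagen gene COL18A1 (0.928). For TAP2 they were FAM13B (0.984), the galactosyltransferase B3GALT6 (0.979) and MSTO1 (0.976), and for TAPBP the kinases MAP3K11 (0.923) and RPS6KA4 (0.914) and then PCNX3 (0.909). For the other members they were MMUT (0.802), DALRD3 (0.788) and FAM83A (0.780) for B2M, MTG1 (0.840), TBL3 (0.819) and CSRNP2 (0.777) for TAP1, and SLFN5 (0.659), WDR72 (0.643) and PLEKHG2 (0.626) for HLA-E. Since the candidates were taken for differences between groups, members without such differences correlate less with them. As deviations from group means, r with HLA-F was 0.284 for TGFBI, 0.552 for APCDD1L and 0.283 for COL18A1, while FAM13B with TAP2 had 0.848. The arrays share 4 groups and a normalization, so these r values are descriptions.

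Lists of other presentation genes, each gene by its brightest kept probe, were read beside the members. Of 11 kept genes of peptide loading and trimming, 0 were called in any set against scramble by limma, with 0, 1 and 1 at an unadjusted p below 0.05 in ARF-4, ARF-2 and ARF-1. Dimmer probes of genes named here were called lower in ARF-1, namely UGGT1 ILMN_1755462 at -0.58 (adjusted p = 0.0216), TPP2 ILMN_2128358 at -0.53 (0.0444) and ERAP2 ILMN_1743145 at -0.58 (0.00691). Over all 9 arrays the disulphide isomerase PDIA4 differed from scramble by -0.19 (adjusted p = 0.306), the glucosyltransferase UGGT1 by -0.17 (0.437), and the peptidases TPP2 by -0.18 (0.459) and BLMH by -0.12 (0.519). The trimming peptidases ERAP1 and ERAP2 differed by 0.15 (adjusted p = 0.594) and 0.00 (0.994).

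Among 10 genes of the immunoproteasome and its standard counterparts, 0 were called in ARF-4 against scramble by limma (2 at an unadjusted p below 0.05), 2 were lower in ARF-2 and 3 were lower in ARF-1, where 8.31%, 24.6% and 25.9% of all probes were called, so the ARF-2 and ARF-1 counts are near those shares. PSME3, a nuclear proteasome activator, had 10.03, 10.17 and 10.03 on ARF-4, 9.48, 9.53 and 9.60 on ARF-2, 9.45, 9.20 and 9.26 on ARF-1, and 10.14, 10.19 and 10.15 on scramble. The ARF-2 and ARF-1 arrays lay below all others, as for TAP2, with differences from scramble of -0.62 (limma, adjusted p = 0.00046) and -0.86 (adjusted p = 4.87e-05). The activator subunit PSME2 differed by -0.30 over the 9 arrays (adjusted p = 0.0457), a call lost on leaving out any ARF-2, ARF-1 or scramble array (adjusted p up to 0.224), while PSME1 differed by -0.18 (adjusted p = 0.244). The interferon-inducible catalytic subunits differed from scramble by -0.03 for PSMB8 (adjusted p = 0.905), -0.20 for PSMB9 (0.401) and -0.10 for PSMB10 (0.579).

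Of 27 kept regulators of class I transcription, 1 was higher and 4 lower in ARF-4 against scramble, 3 higher and 10 lower in ARF-2, and 2 higher and 7 lower in ARF-1, where 8.31%, 24.6% and 25.9% of all probes were called. RELB, an NF-kB subunit, had 6.92, 7.05 and 7.12 on ARF-4, 6.50, 6.88 and 6.83 on ARF-2, 6.51, 6.44 and 6.47 on ARF-1, and 7.98, 7.98 and 8.19 on scramble. It was lower in every set, with differences of -1.02, -1.32 and -1.57 in ARF-4, ARF-2 and ARF-1 (limma, adjusted p = 0.0002278, 1.229e-05 and 3.355e-06). The interferon-receptor kinase JAK1 was lower over the 9 arrays by a difference of -0.71 (adjusted p = 0.00245), and NFYC, a subunit of the CCAAT-binding factor, by -0.61 (adjusted p = 0.0119), while the interferon receptor chain IFNAR2 was higher by 0.63 (adjusted p = 0.00378), its dimmer probe not being called (0.185). The NFYC call over the 9 arrays was lost without scramble replicate 1 or 2 (adjusted p up to 0.0709). For IRF1, which binds the interferon-stimulated response element, ARF-4 differed from scramble by 0.01 (adjusted p = 0.983), ARF-2 by -0.42 (0.00642) and ARF-1 by -0.25 (0.0661). NLRC5, the class I transactivator, was detected on 2 of 12 arrays and was not tested.

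Other class I-like genes gave 11 kept genes, of which 1 was lower in ARF-4 (HLA-G), 6 were higher in ARF-2 and 4 were higher in ARF-1 against scramble, where 8.31%, 24.6% and 25.9% of all probes were called. PROCR, the endothelial protein C receptor, differed from scramble by 0.27 in ARF-4 (adjusted p = 0.209) and was higher in ARF-2 by 0.70 (0.00146) and in ARF-1 by 0.73 (0.00102). MR1, which presents vitamin metabolites, was detected on 0 of 3 ARF-4, 2 of 3 ARF-2, 3 of 3 ARF-1 and 0 of 3 scramble arrays. Its differences from scramble, where it was not well above background, were called in ARF-2 (limma, adjusted p = 0.0284) and in ARF-1 (adjusted p = 0.00754). Set against the lowest signal well above background on each scramble array, the means were 1.02-fold and 1.10-fold higher, which leaves out the spread between arrays. MR1 passed the detection filter only through ARF-2 and ARF-1 arrays, so these calls, counted above among the higher genes, are no separate support. The neonatal Fc receptor chain FCGRT and the iron regulator HFE were higher in ARF-2, by 0.65 (adjusted p = 0.00869) and 0.79 (0.0156), and in ARF-1, by 0.50 (0.0314) and 0.62 (0.0440). The MR1 call in ARF-2 was lost without ARF-2 replicate 2 or 3 or scramble replicate 1 or 3 (adjusted p up to 0.110), and that of FCGRT in ARF-1 without ARF-1 replicate 1 or 2 or scramble replicate 1 (up to 0.126). The HFE call was lost in ARF-2 without ARF-2 replicate 1 or scramble replicate 1 (up to 0.0626), and in ARF-1 without ARF-4 replicate 3, ARF-2 replicate 2 or 3 or any ARF-1 or scramble array (up to 0.122).

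Most of the measured class II presentation genes were higher in each of the 3 sets. Of 12 kept genes, 7 were higher and 0 lower than scramble in each of ARF-4, ARF-2 and ARF-1, with median differences of 0.44, 0.69 and 0.49, where 8.31%, 24.6% and 25.9% of all probes were called in either direction. CD14 was also higher in ARF-2 and ARF-1, as given above, and its part in these values was not tested. HLA-DRA, the class II alpha chain, had 11.24, 11.16 and 11.31 on ARF-4, 11.62, 11.60 and 11.67 on ARF-2, 11.30, 11.34 and 11.40 on ARF-1, and 10.40, 10.54 and 10.46 on scramble. All 9 arrays were above all scramble arrays, with a difference of 0.94 (limma, adjusted p = 0.000285). The peptide editors HLA-DMA and HLA-DMB were higher by 0.95 (adjusted p = 0.000477) and 0.83 (0.00253), and the invariant chain CD74 by 0.45 (0.0037). HLA-DRB4 and HLA-DRB6, also called over the 9 arrays, have near-identical relatives that their probes may not separate.

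In the list for trafficking and turnover of class I molecules, 19 genes were kept, of which 1 was higher in ARF-4, 4 were higher and 2 lower in ARF-2, and 4 were higher and 3 lower in ARF-1 against scramble, where 8.31%, 24.6% and 25.9% of all probes were called. SUSD6, a membrane protein known to promote removal of class I molecules, differed from scramble by -0.42 in ARF-4 (adjusted p = 0.0738) and was lower in ARF-2, with a difference of -0.80 (0.00101), and in ARF-1, with -1.07 (0.000126). The protease SPPL2A and the ubiquitin-conjugating enzyme UBE2J1 of the endoplasmic reticulum were higher over the 9 arrays by 0.37 (adjusted p = 0.0140) and 0.38 (0.0232), and the ubiquitin ligase SYVN1 differed by -0.18 (0.182). The SPPL2A call was lost without scramble replicate 2 or 3 (adjusted p up to 0.113), and that of UBE2J1 without any scramble array (up to 0.156).

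**Figure D5:**
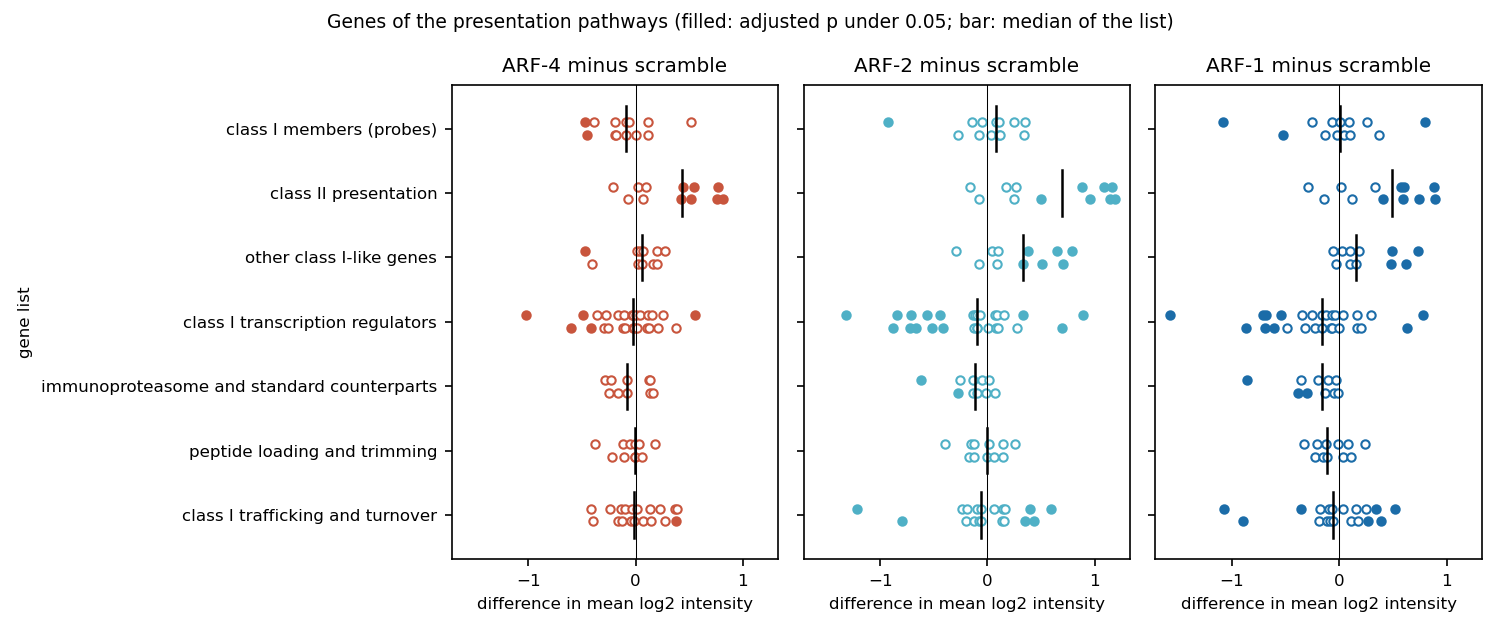
Difference in mean log2 intensity from scramble for the 13 member probes and for 6 lists of presentation genes, with ARF-4, ARF-2 and ARF-1 from left to right. Each point is a probe or gene, filled where the adjusted p was below 0.05, and bars are medians. Members and class II genes both lie on both sides of 0, and the class II medians are 0.44, 0.69 and 0.49.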

How the data were processed

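Expression was read from 12 beadchips of the type HumanHT-12 V4.0 (Illumina). The authors deposited linear, unnormalized bead intensities and a detection p-value for each probe. The submitters' processing notes name BeadStudio 2.3.47. The intensity table of processed values that the authors deposited equals those signals after quantile normalization. Arrays were grouped by their labels and source names. Signals were background-corrected, quantile-normalized and put on a log2 scale with neqc (limma 3.58.1, R 4.3.3, offset 16), with the deposited detection p-values. Probes with a detection p below 0.05 on at least 3 arrays were kept. Limma fits used 2 condition means for 9 against 3 arrays and 4 group means otherwise, with Benjamini-Hochberg adjustment over 22195 probes. The procedure was tested on simulated data.

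Members and lists were chosen with earlier results of these data known. All member probes are given. From each list the 4 genes with the smallest adjusted p over 9 against 3 arrays were named, plus chosen regulators, immunoproteasome and ERAP genes, each by its brightest kept probe. HLA-G, HLA-H, HLA-DRB4 and HLA-DRB6 were outside this rule. Alternatives were no background correction, median scaling, the authors' value table, other detection filters, a trended and robust prior, a replicate block, a random block and leaving out each array. The number of arrays limits the precision.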

Additional observations from a re-analysis of the deposited data

Results flagged for a closer look

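Effects against scramble differed between the ARF1 siRNA sets for 6 member probes, by the limma F-test of the difference among ARF-4, ARF-2 and ARF-1, where 19.8% of all probes were called. HLA-B ILMN_1778401 (adjusted p = 0.008051) differed from scramble by -0.45 in ARF-4, 0.08 in ARF-2 and 0.10 in ARF-1. HLA-C ILMN_1721113 (adjusted p = 0.02134) differed by -0.39 in ARF-4, 0.11 in ARF-2 and 0.09 in ARF-1. For HLA-F ILMN_2186806 (adjusted p = 0.02831) the differences were -0.47 in ARF-4, -0.08 in ARF-2 and -0.26 in ARF-1, and for HLA-F ILMN_1762861 (adjusted p = 0.03757) they were -0.19 in ARF-4, 0.25 in ARF-2 and 0.37 in ARF-1. TAP2 ILMN_1777565 (adjusted p = 0.0004371) differed by -0.19 in ARF-4, -0.93 in ARF-2 and -1.09 in ARF-1, whereas TAP2 ILMN_1759250 (adjusted p = 0.03357) differed by 0.52 in ARF-4, -0.14 in ARF-2 and -0.06 in ARF-1.

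The tests of HLA-B and TAP2 ILMN_1777565 held on leaving out each array in turn. That of HLA-C was lost without ARF-4 replicate 1 or 3 (adjusted p up to 0.0929), and that of HLA-F ILMN_2186806 without ARF-2 replicate 1 or 3 or any ARF-4 array (up to 0.0888). That of HLA-F ILMN_1762861 was lost without ARF-4 replicate 2 or 3, ARF-2 replicate 2 or 3, ARF-1 replicate 2 or 3 or scramble replicate 1 (up to 0.155), and that of TAP2 ILMN_1759250 without ARF-4 replicate 1 or 2 or ARF-2 replicate 2 or 3 (up to 0.154). Among the other processing settings, the test of HLA-F ILMN_1762861 was called in only 1 of 6 and that of HLA-C in 3 of 6. TAP2 ILMN_1759250 was called in 5 of 7 and HLA-F ILMN_2186806 in 6 of 7. HLA-B and TAP2 ILMN_1777565 were called in all 7.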

How the results depend on the processing

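No called member difference changed sign under the alternatives run. Over all 9 arrays against scramble, 1 member probe was called, and 2 were called without background correction, with the authors' value table or with a trended and robust prior, 3 with 4 group means, 0 with no filter on detection, 0 with source names fitted as random blocks (correlation 0.289), and 0 to 2 on leaving out 1 array. ARF-4 against scramble gave 2, or 1 with median scaling, and 1 to 2 on leaving out 1 array. ARF-2 against scramble gave 1, or 2 without background correction, with median scaling, the authors' table, a detection p below 0.01 on all arrays or the trended prior, and 1 to 2 on leaving out 1 array. ARF-1 against scramble gave 3, or 5 without background correction, with the authors' table or the trended prior, and 2 to 3 on leaving out 1 array. ARF-4 against ARF-1 gave 8, or 5 with the stricter detection filter, and 2 to 8 on leaving out 1 array, ARF-4 against ARF-2 gave 5 and 3 to 5, and the F-test over the 3 sets gave 6 and 3 to 7. An equal count need not hold the same probes. The F-test of B2M ILMN_2148459, outside those 6, was called in 5 of 7 other processing settings.

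With the replicate number as a block, the count over 9 arrays was 0 and TAP2 ILMN_1777565 was not called there (adjusted p = 0.0819). In deviations from group means over the kept probes, same-numbered arrays correlated at -0.0223 to 0.0372 (18 pairs). Other pairs from different groups correlated at -0.032 to 0.0209 (36 pairs). No pairing was seen in these values, but shared handling of same-numbered arrays was not tested. Over all probes, 2423 were called over 9 arrays, against 551 with the random block, where 61.9% of calls were higher against 51.5%, and 5267 with 4 group means, and 844 without scramble replicate 2, 865 without scramble replicate 3 and 974 without scramble replicate 1. ARF-4 against scramble called 1845 probes, against 3041 without background correction, 2995 with the authors' table, 2817 with the trended prior, 1104 with only the 6 arrays and 1118 at the fewest on leaving out 1 array. ARF-2 against ARF-1 called 14, against 133 without background correction, 109 with the authors' table, 72 with the trended prior, 48 with the stricter filter, 6 with median scaling, 3 with the block and 1 to 10 on leaving out 1 array. The differences called for HLA-C, HLA-F ILMN_1762861 and TAP2 ILMN_1759250 were smaller without background correction. The cause of these changes was not tested.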
